A study of Rattus norvegicus with 24 samples.

Results

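Lungs of rats that had inhaled crystalline silica were compared with lungs of rats that had breathed clean air, long after the dust exposure had ended. The comparison used 12 of the 24 arrays of the study, 6 lungs per group, with 1 array per rat. All rats were males of the strain labelled CDF Fisher 344, with an age label of 3 months that names no point of the study. The silica group breathed 15 mg/m3 for 6 hours a day on 5 days, the air group breathed 0 mg/m3, and every lung was taken 32 weeks after exposure. The other 12 arrays held blood of the same rats. The comparison was of whole lungs, so that fewer cells of a type and less RNA per cell cannot be told apart. The deposited table has 21792 probes, and 11285 of them were tested, those detected (p under 0.05 against negative controls) on 6 or more of the 12 lung arrays. Another 10507 probes were not tested. At the edge of that filter, 257 probes were detected on exactly 6 arrays and 257 on exactly 5. Their median level was 6.49 on the log2 scale on either side of the edge, against a floor close to that value.

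Crystalline silica particles are taken up by alveolar macrophages and are cleared slowly, so that a short exposure leaves a lasting deposit in the lung. The disease that follows, silicosis, is known for persistent inflammation, nodules and scarring. Genes of inflammation and standard cell markers are the usual reading of such tissue. The account below turns to the rest of the transcriptome: transport of small molecules and metals, vessel tone, second messengers, gene control, translation and cell structure.

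Silica lungs differed from air lungs over much of the transcriptome, but outside the inflammatory genes the sizes were small. In total 1820 probes (16.1% of those tested) passed a Benjamini-Hochberg adjusted p of 0.05 in limma, 857 higher and 963 lower after silica. Of 9338 tested probes with a gene name outside the usual inflammation and marker lists, 1476 (15.8%) passed, with 647 higher and 829 lower. Among the 519 probes of those usual lists 192 (37%) passed. The median size of the change among called probes was 0.237 on the log2 scale outside the usual lists and 0.41 within them. Outside them, 7 genes at least doubled and 56 rose at least 1.5-fold, while no gene fell 2-fold and 19 fell at least 1.5-fold. The values of all 6 silica lungs lay beyond those of all 6 air lungs for 915 probes (8.11% of those tested), 716 of them outside the usual lists. The arrays were alike in raw brightness, with median signals of 66.1 to 74.9 and 11013 to 11733 detected probes. Neither measure differed between the groups past the threshold (exact permutation tests, two-sided, p = 0.82 and 0.136). The silica lungs ran from 4.22 to 15.78 on the first principal component and the air lungs from -13.3 to -6.1. Each gene named as risen or fallen below stayed past the threshold in all 12 fits that left out 1 lung, unless its sentence says otherwise. Genes were named mostly for this property.

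**Figure D1:**
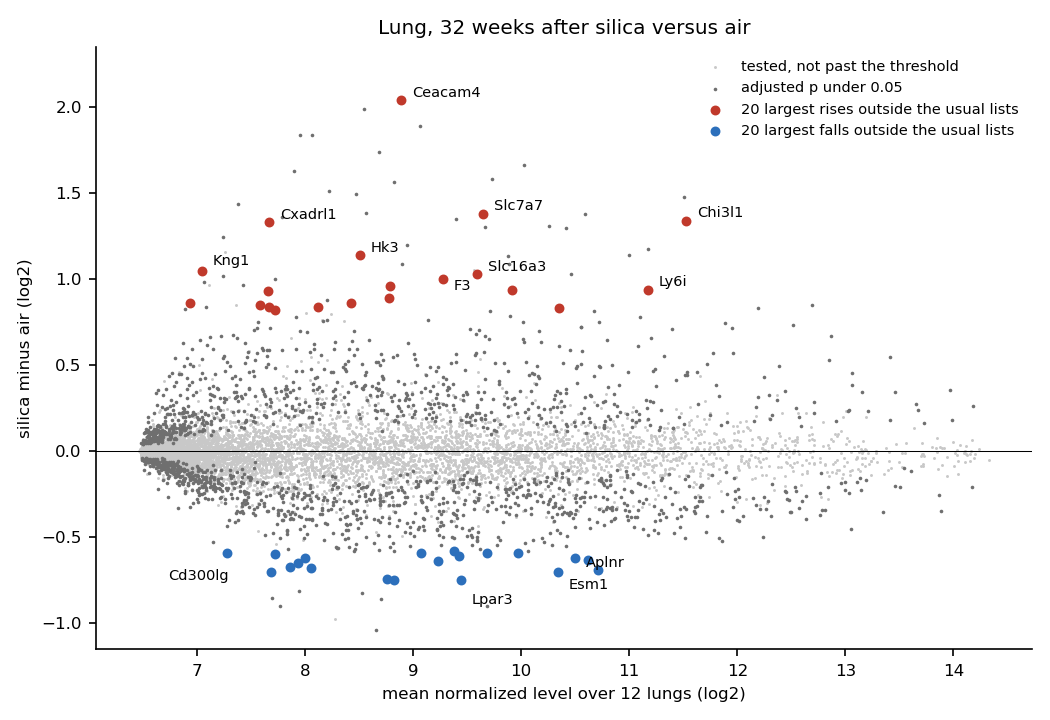
Difference between silica and air lungs (vertical axis, log2) against mean level over the 12 lungs (horizontal axis, log2) for each tested probe, in dark grey where the adjusted p was under 0.05. The 20 largest rises outside the usual lists (red) spanned 1.76-fold to 4.11-fold and the 20 largest falls (blue) 1.5-fold to 1.68-fold, and 12 probes beyond the vertical range are not drawn.

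Genes for cell-surface and secreted proteins were among the 20 largest rises outside the usual lists. Ceacam4, listed under the older symbol CEACAM10, belongs to the carcinoembryonic antigen family of adhesion molecules. Its log2 level was 7.62 at the lowest, 7.75 at the median and 8.22 at the highest in air lungs, and 9.31, 9.91 and 10.49 in silica lungs. The groups were far apart, and Ceacam4 rose 4.11-fold (log2 2.04 ± 0.18 SE, n = 6 and 6, limma adjusted p = 9.43e-05). Members of this family resemble each other, so that the probe could read more than 1 of them. Chi3l1, a chitinase-like protein that binds chitin without cutting it, ran from 10.73 to 10.98 in air lungs and from 11.86 to 12.57 in silica lungs. It rose 2.54-fold (limma adjusted p = 6.6e-05). Cxadrl1 rose 2.51-fold, from a median of 7.01 to one of 8.36. Ly6i, listed as LY6B, is a lipid-anchored surface protein of the Ly6 family and rose 1.91-fold. Fetub, a secreted inhibitor of astacin proteases, rose 1.78-fold. Tmem45b, a membrane protein, was close to the floor of the scale in air lungs, from 6.49 to 6.54, and between 6.98 and 7.94 in silica lungs. Igsf7 rose 1.85-fold with a wide spread in air lungs, where its lowest value was 7.59 and its median 8.58.

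Genes that act inside cells were also among the 20 largest rises. Batf, a transcription factor of the AP-1 family, was between 7.03 and 7.32 in air lungs and between 7.97 and 8.32 in silica lungs, a 1.9-fold rise (limma adjusted p = 4.49e-05). Otulinl, a relative of the deubiquitinase Otulin, rose 1.79-fold. Cks2, a small partner of cyclin-dependent kinases, rose 1.78-fold. In 5 silica lungs Cks2 lay between 8.13 and 8.2, and in replicate 6 it was 7.64. Noxo1, which organises the NADPH oxidase Nox1, rose 1.8-fold (limma adjusted p = 0.00682). The 20 genes with the largest rises did not overlap between the groups, a property that the choice by size favours.

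Several transporters of amino acids and of organic acids rose. Slc7a7 is the light subunit of an exchanger that moves arginine and lysine out of cells. Its level was 8.46 at the lowest, 9.06 at the median and 9.36 at the highest in air lungs and 9.81, 10.36 and 10.66 in silica lungs. The lowest silica lung was above the highest air lung, and the rise was 2.6-fold (log2 1.38 ± 0.19, n = 6 and 6, limma adjusted p = 0.00102). Slc16a3, known as the lactate exporter MCT4, rose 2.04-fold from between 8.88 and 9.35 to between 9.61 and 10.42. Slc16a11, of the same monocarboxylate transporter family, rose 1.82-fold. Slc13a2, which carries dicarboxylates and citrate into cells with sodium, rose 1.76-fold. Hk3, a hexokinase that phosphorylates glucose in the opening step of glycolysis, rose 2.2-fold from a median of 7.92 to one of 9.02. In the citric acid cycle, 3 of 25 tested genes were higher and none lower, with a list median of 0.03 on the log2 scale. That is no larger a share than the 16.2% of all tested genes that passed in either direction. Fh, which hydrates fumarate to malate, rose 1.27-fold, and Suclg1, a subunit of succinyl-CoA ligase, rose 1.26-fold. Sfxn1, a mitochondrial serine carrier, was among the genes with the smallest p, at 7.32 to 7.44 in air lungs and 7.79 to 8.01 in silica lungs (1.4-fold, limma adjusted p = 6.35e-05).

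Genes around arginine and nitric oxide went in opposite directions. Of 18 tested genes, 4 were higher and 3 lower, against 7.60% higher and 8.59% lower of all genes tested, and the count fell from 7 to 4 without silica replicate 4. Gch1 makes the precursor of tetrahydrobiopterin, a cofactor of nitric oxide synthases. It rose 1.69-fold, from 7.54 at the lowest, 7.76 at the median and 8.09 at the highest in air lungs to 8.17, 8.59 and 8.79 in silica lungs. Arg1, which splits arginine into ornithine and urea, rose 1.48-fold (limma adjusted p = 0.0184). Ddah1, which clears methylated arginines that inhibit nitric oxide synthases, fell 1.33-fold, from a range of 9.36 to 9.59 to a range of 8.76 to 9.28. Its relative Ddah2 fell 1.2-fold, and its groups did not overlap either. In NAD metabolism 2 of 13 tested genes were higher, Parp1 at 1.34-fold and Naprt at 1.22-fold. That share (15.4%) was close to the 16.2% of all tested genes that passed in either direction. Parp1 spends NAD at DNA breaks, and Naprt makes NAD from nicotinic acid.

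The metal-binding gene Mt1 and the stress gene Zfand2a rose. Mt1, a metallothionein that binds zinc and copper and is listed under MT1A, had one of the smallest p-values of all. Its levels were 9.17 at the lowest, 9.48 at the median and 9.63 at the highest in air lungs and 10.28, 10.42 and 10.46 in silica lungs. The silica lungs lay within a narrow band above every air lung, and Mt1 rose 1.92-fold (log2 0.94 ± 0.06, n = 6 and 6, limma adjusted p = 2.11e-05). Zfand2a encodes a zinc finger protein that joins the proteasome in cells under arsenite or proteotoxic stress. It rose 1.95-fold, from between 8.15 and 8.43 to between 9.06 and 9.49 (limma adjusted p = 7.14e-05). The promoters of these genes are shown because they are textbook targets of metal and of protein stress. Each is 300 bases from RefSeq, build GRCr8, reaching 250 bases before and 50 after the annotated start of the gene and written 5′ to 3′ on the strand of the gene. The window of Mt1 is chr19:10832926-10833225 on the minus strand, and capitals mark the core of the metal response element, TGCGCNC or TGCACNC on either strand. The window of Zfand2a is chr12:20275200-20275499 on the plus strand, and capitals mark a pair of heat shock element units, GAANNTTC or TTCNNGAA.
Mt1: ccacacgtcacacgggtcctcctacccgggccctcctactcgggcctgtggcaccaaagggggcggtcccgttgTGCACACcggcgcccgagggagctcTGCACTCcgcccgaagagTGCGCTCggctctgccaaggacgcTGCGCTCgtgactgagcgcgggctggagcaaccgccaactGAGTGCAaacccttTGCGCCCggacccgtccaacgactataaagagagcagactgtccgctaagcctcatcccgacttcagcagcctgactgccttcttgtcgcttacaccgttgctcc
Zfand2a: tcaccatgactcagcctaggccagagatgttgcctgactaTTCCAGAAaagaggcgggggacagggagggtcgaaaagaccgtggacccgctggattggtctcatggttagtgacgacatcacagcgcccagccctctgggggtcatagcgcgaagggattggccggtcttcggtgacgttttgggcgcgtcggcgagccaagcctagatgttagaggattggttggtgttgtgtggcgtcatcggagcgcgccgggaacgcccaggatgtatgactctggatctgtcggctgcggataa
The Mt1 window held 6 matches to the metal response core and none to the heat shock pair. Among 33469 RefSeq promoters of that length, 24.2% held at least 1 match to the metal core and 0.439% held 4 or more. The Zfand2a window held 1 heat shock pair, starting at -210 from the gene start, and no metal core, and 15.9% of the promoters held such a pair. A match of letters is a description and shows no binding.

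Genes of iron metabolism changed in either direction. Of 16 tested genes for uptake, storage and export, 5 were higher and 2 lower (43.8%, beside 16.2% of all tested genes). The list median was 0.01 on the log2 scale beside -0.006 over all probes, and the count was 6 or 7 in each fit without 1 lung. The largest change on the list was a rise of 1.89 on the log2 scale, in a member not named here. Tf, the iron carrier transferrin, was 11.34 at the lowest, 11.6 at the median and 11.76 at the highest in air lungs and 11.97, 12.37 and 12.54 in silica lungs. It rose 1.64-fold (limma adjusted p = 0.00135). Slc11a2, the divalent metal importer DMT1, rose 1.35-fold. Ftl1, the light chain of the iron store ferritin, rose 1.31-fold from an already bright signal, with medians of 12.9 and 13.27. Heph, a copper-dependent oxidase that works with iron export, fell 1.35-fold, from between 9.07 and 9.32 to between 8.56 and 8.86. Of 12 tested zinc and copper genes, 2 were higher (16.7%), close to the 16.2% of all tested genes that passed in either direction. Mt1, described above, was not on that list, whose largest rise was 0.17 on the log2 scale. Slc31a1, the copper importer, rose 1.12-fold, and the other gene was lost in 8 of the fits that left out a lung.

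**Figure D2:**
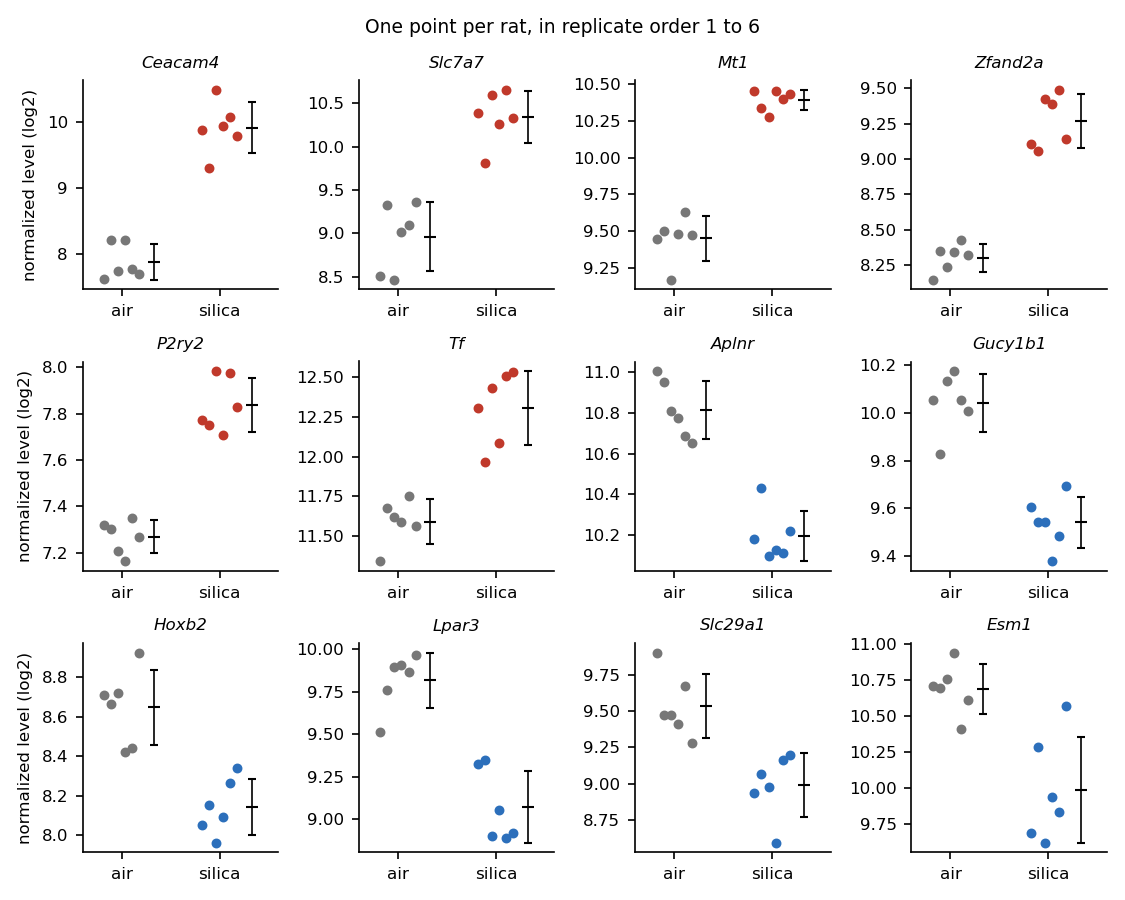
Normalized log2 level of 12 genes, 1 point per rat in replicate order, with the group mean and SD (n = 6) beside the points and a vertical axis of its own for each gene. The silica lungs lay wholly above the air lungs for the first 6 genes and wholly below them for Aplnr, Gucy1b1, Hoxb2, Lpar3 and Slc29a1, and 1 silica lung overlapped the air range for Esm1.

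On the list of blood vessel tone, the genes that passed the threshold were all lower. Kng1 and Adora2b, described below with other lists, rose. Among all tested genes 8.59% were lower and 7.60% higher, and the function lists were chosen with earlier results of these data known. Of 24 tested genes for vasoactive peptides, their receptors and cyclic GMP, 10 were lower and none higher. Their median was -0.19 on the log2 scale, and the count stayed between 10 and 13 in the fits without 1 lung and was 9 under median scaling. Aplnr is the receptor of apelin, a peptide that relaxes vessels. It was 10.65 at the lowest, 10.79 at the median and 11.01 at the highest in air lungs and 10.1, 10.15 and 10.43 in silica lungs. All silica lungs were below all air lungs, and Aplnr fell 1.54-fold (log2 -0.62 ± 0.07, n = 6 and 6, limma adjusted p = 0.000512). Its ligand Apln fell 1.44-fold, from between 9.59 and 10.06 to between 9.1 and 9.57. Bmpr2, the bone morphogenetic protein receptor whose gene is mutated in heritable pulmonary hypertension in humans, fell 1.42-fold. Agtr1a, a receptor of angiotensin II, fell 1.41-fold, from a range of 9.68 to 10.01 to one of 9.23 to 9.54. Further members, chosen after their values were seen, were Gucy1b1 at 1.41-fold lower, Ednra at 1.38-fold lower, Ace at 1.3-fold lower and Ramp2 at 1.27-fold lower. Gucy1b1 is a subunit of the guanylyl cyclase that nitric oxide activates. Ednra is a receptor of endothelin, Ace makes angiotensin II, and Ramp2 is the partner that turns the receptor Calcrl into one for adrenomedullin.

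Angiogenic growth factors and their receptors were lower too, with less stability. Of 20 tested genes 8 were lower and none higher, against 8.59% lower and 7.60% higher of all genes tested. The count was 4 without air replicate 4 or silica replicate 4, and 5 without air replicate 1, air replicate 3 or silica replicate 3. Esm1, the proteoglycan endocan of activated endothelium, was 10.41 to 10.94 in air lungs and 9.62 to 10.57 in silica lungs, where replicate 6 was highest. It fell 1.62-fold (limma adjusted p = 0.0109). Fgfr4, a fibroblast growth factor receptor, fell 1.47-fold, and Epas1, the hypoxia-inducible factor HIF-2α, fell 1.41-fold. Other genes known from endothelium were among the 20 largest falls or the most abundant transcripts. Gpr182, listed under ADMR, fell 1.66-fold from between 8.95 and 9.27 to between 8.2 and 8.75. Cd300lg, a mucin-like capillary receptor, fell 1.63-fold, and Aoc3, the amine oxidase also called vascular adhesion protein 1, fell 1.62-fold. Plvap, which forms the diaphragms of fenestrae and caveolae, was bright on every array and fell 1.16-fold, from a median of 14.28 to one of 14.08. Car4, a membrane carbonic anhydrase of lung capillaries, fell 1.35-fold, from between 10.88 and 11.16 to between 10.28 and 10.7. Of 17 tested genes of the Notch pathway 5 were lower and 1 higher, or 35.3% beside 16.2% of all tested genes. The Notch count was 3 without air replicate 1 or silica replicate 3. The endothelial receptor Notch4 fell 1.39-fold, with silica replicate 6 at 8.31 and the other silica lungs at 7.55 to 7.77.

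Several marker lists of cell types also moved, inside and outside the vessel wall. For comparison, 8.59% of all tested genes were lower and 7.60% higher. Of 6 tested endothelial markers 5 were lower and none higher, with a median of -0.4 on the log2 scale. Their summed normalized intensity ran from 17725 to 20637 in air lungs and from 12682 to 17759 in silica lungs (exact permutation test, two-sided, p = 0.00433, n = 6 and 6), with a slight overlap. Fibroblast markers summed to between 15391 and 17394 in air lungs and between 12811 and 15820 in silica lungs, with 3 of 8 lower. Alveolar type 1 markers summed to between 28388 and 31290 and between 24667 and 26759, with 5 of 8 lower, or 3 without air replicate 1, 4, 5 or 6 or silica replicate 1. Mesothelial markers summed to between 6772 and 8129 in air lungs and between 5753 and 6575 in silica lungs. Of 4 tested mesothelial markers 2 were lower, or 0 without air replicate 6 or silica replicate 4 or 5. Macrophage markers summed to between 8796 and 14139 in air lungs and between 14646 and 20326 in silica lungs, with 3 of 6 higher. The macrophage list median was only 0.05 on the log2 scale, and such a sum gives most weight to the brightest members. Neutrophil markers summed to between 1052 and 1964 in air lungs and between 2469 and 4971 in silica lungs. Only 1 of 4 tested neutrophil markers was higher, with a list median of 0.08 on the log2 scale. Plasma cell markers summed to between 5295 and 6854 and between 8063 and 11825, with 3 of 6 higher. The plasma cell list median was 0.1 on the log2 scale. Those 3 include Derl3, which lay near the floor and met the detection filter through the silica lungs alone. T cell markers summed to between 1388 and 2074 in air lungs and between 2071 and 3623 in silica lungs, with 2 of 7 higher. Alveolar type 2 markers summed to between 47667 and 52158 and between 50961 and 60199. Of 8 tested type 2 markers 3 were higher, or 0 without air replicate 3 or silica replicate 3. Of the endothelial, fibroblast, alveolar type 1 and macrophage markers on the array, Marco, a macrophage scavenger receptor, was undetected on all 12 lung arrays and the others were detected. The part of these cell types in the changes described here was not tested. Cardiac muscle markers varied strongly among lungs of either group, from 453 to 5907 in air and from 462 to 4554 in silica, and did not differ between the groups past the threshold (exact permutation p = 0.721).

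Channels, receptors and matrix proteins made up much of the remaining large falls. Abcc9, the regulatory subunit of a potassium channel that closes with ATP, fell 1.52-fold, and Cacna2d1, an accessory subunit of calcium channels, fell 1.57-fold. Lpar3, a receptor of lysophosphatidic acid, fell 1.68-fold from between 9.52 and 9.97 to between 8.89 and 9.35. Among secreted and matrix proteins, Igfbp3, which binds insulin-like growth factors, fell 1.54-fold. Mamdc2, Spon2 and Efemp1, which are secreted or sit in the extracellular matrix, fell 1.53-fold, 1.51-fold and 1.51-fold. Pcdh19, an adhesion protein of the cadherin superfamily, fell 1.5-fold. Tesc, a calcium-binding protein, fell 1.6-fold, and Alox15, a lipoxygenase of arachidonic and linoleic acid, fell 1.59-fold with overlapping groups. Ldb2, an adaptor of LIM-domain proteins, fell 1.55-fold, and Ripply3, a transcriptional repressor of development, fell 1.56-fold.

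Genes of cyclic nucleotide and G protein signalling that passed the threshold were mostly lower. Of 19 tested phosphodiesterases and adenylyl cyclases 5 were lower and 1 higher, against 8.59% lower and 7.60% higher of all genes tested. The list median was -0.01 on the log2 scale, close to the -0.006 over all probes. Adcy9, an adenylyl cyclase, fell 1.51-fold from a range of 10.09 to 10.46 to one of 9.52 to 9.92. Adcy2, another cyclase, fell 1.4-fold with overlapping groups. Pde2a, which cyclic GMP activates, fell 1.49-fold, and Pde9a, which breaks down cyclic GMP, fell 1.48-fold. The member that was higher, Pde7a, was lost in 9 of the fits that left out a lung. Of 25 tested regulators of G protein signalling and G protein subunits 7 were lower and 3 higher, and the count stayed between 8 and 11 without 1 lung. The median of that list was -0.03 on the log2 scale. Rgs12 fell 1.38-fold, Rgs7 fell 1.32-fold and the γ subunit Gng11 fell 1.31-fold. Gna15, a subunit known from blood cells, rose 1.5-fold from between 7.17 and 7.53 to between 7.57 and 8.26. Ptprr, a phosphatase that acts on MAP kinases, fell 1.51-fold, and its air lungs kept within 9.32 and 9.47.

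Extracellular nucleotide and adenosine genes changed in either direction. Of 22 tested purine and pyrimidine genes 6 were higher and 3 lower, with 9 to 11 in the fits without 1 lung. P2ry2, a receptor of extracellular ATP and UTP, was 7.16 at the lowest, 7.29 at the median and 7.35 at the highest in air lungs and 7.71, 7.8 and 7.98 in silica lungs. It rose 1.48-fold (limma adjusted p = 0.000106). The ATP-gated channel P2rx4 at 1.29-fold, the nucleotidase Entpd2 at 1.22-fold and the adenosine receptor Adora2b at 1.25-fold were also higher, as read after their values were seen. The other receptor of the pair, Adora2a, fell 1.31-fold, from between 9.14 and 9.4 to between 8.71 and 9.05. Slc29a1, a transporter that carries adenosine across the cell membrane, fell 1.46-fold. Enpp1, which makes pyrophosphate from extracellular ATP, fell 1.3-fold.

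Most of the clotting genes that passed the threshold were higher. Of 22 tested genes of coagulation and fibrinolysis 6 were higher and 1 lower, against 7.60% higher and 8.59% lower of all genes tested. The other 15 did not pass, and the list median was 0.006 on the log2 scale beside -0.006 over all probes. The count stayed between 6 and 8 in the fits without 1 lung. F3, the tissue factor that starts clotting, rose 2-fold from 8.54 at the lowest, 8.75 at the median and 9.12 at the highest in air lungs to 9.3, 9.7 and 10.22 in silica lungs (limma adjusted p = 0.00204). Kng1, the kininogen that bradykinin is cut from, was close to the floor in air lungs, between 6.5 and 6.54, and ranged from 7.05 to 8.23 in silica lungs. The Kng1 row appears to combine several probes, and rat kininogen genes resemble each other closely, so that it could read more than 1 gene. Serpine2, a cell-bound inhibitor of thrombin, rose 1.37-fold. Fgg, a chain of fibrinogen, rose 1.36-fold with overlapping groups. The gene that was lower, Thbd, encodes thrombomodulin, an anticoagulant receptor of endothelium. It was 1.26-fold lower (limma adjusted p = 0.0263) and was lost in 7 of the fits without 1 lung.

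**Figure D3:**
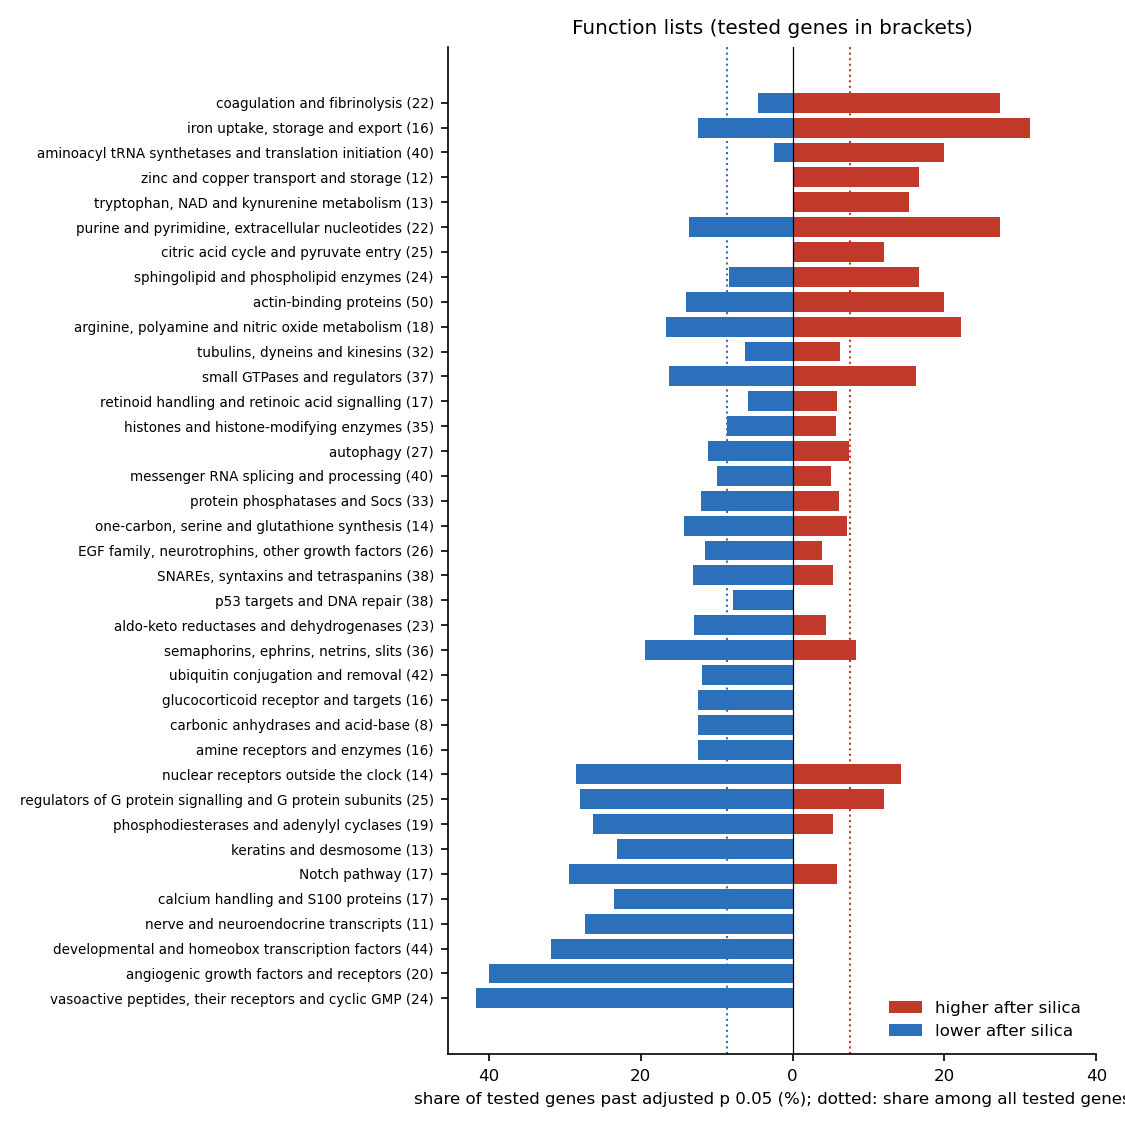
Share of the tested genes of each of 37 function lists that were higher (red, to the right) or lower (blue, to the left) after silica at an adjusted p under 0.05, with the number of tested genes in brackets and the shares among all tested genes as dotted lines (7.60% and 8.59%). The lists of vessel tone, angiogenesis and developmental transcription factors stand at the bottom with lower genes alone, and those of coagulation and iron at the top.

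Developmental transcription factors past the threshold were all lower. Of 44 tested genes 14 were lower and none higher, with a median of -0.1 on the log2 scale. The count was 9 without air replicate 3 or silica replicate 3 and 11 under median scaling. Hoxb2, a homeobox factor of body position, was 8.42 at the lowest, 8.69 at the median and 8.93 at the highest in air lungs and 7.96, 8.12 and 8.34 in silica lungs. The groups did not overlap, and Hoxb2 fell 1.42-fold. Hoxb5, of the same cluster and known from lung branching in mice, fell 1.35-fold. Snai1, a repressor of epithelial cadherin, fell 1.37-fold. Other members, chosen after their values were seen, were Tbx3 at 1.34-fold, Zeb1 at 1.34-fold, Tbx2 at 1.31-fold, Sox4 at 1.24-fold and Hoxa2 at 1.15-fold lower. Among 14 nuclear receptors outside the clock 2 were higher and 4 lower, with 6 in every fit without 1 lung. The thyroid hormone receptors went in opposite directions. Thrb rose 1.42-fold, from between 7.09 and 7.34 to between 7.28 and 7.91, and Thra fell 1.24-fold, from between 10.01 and 10.28 to between 9.62 and 9.92. The orphan receptors Nr2f2 and Nr2f1, known from veins and from development, fell 1.33-fold and 1.18-fold. Klf9, a target of glucocorticoid and thyroid hormone, fell 1.37-fold with silica lungs from 10.55 to 11.29. Of 16 tested glucocorticoid genes 2 were lower and none higher, no larger a share than among all genes. That count was 1 under median scaling and in 8 of the 12 fits without 1 lung (each of air replicates 1, 2, 4 and 6 and silica replicates 1 to 4).

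Guidance cues, growth factors and small GTPases changed in either direction. Sema4a, a semaphorin of immune cells and retina, rose 1.64-fold from between 10.82 and 11.23 to between 11.6 and 11.88 (limma adjusted p = 0.000169). Sema6a fell 1.27-fold, and Plxnd1, a semaphorin receptor of endothelium, fell 1.26-fold. Of the 36 genes tested on that list 3 were higher and 7 lower, and 5 in all passed without silica replicate 3 or 4. The total was 6 without air replicate 5 or 6 or without silica replicate 5. Grn, the lysosomal growth factor progranulin, rose 1.41-fold, and Gfra2, a receptor of neurturin, fell 1.28-fold. Of 37 tested small GTPases and regulators 6 were higher and 6 lower. Rab7b, which directs traffic from late endosomes, rose 1.56-fold, and the GTPase Rnd1 rose 1.27-fold. Rasgrp2, an activator of Rap1 known from platelets, fell 1.34-fold, and Rhoj, a small GTPase of endothelium, fell 1.29-fold. Chn1, which inactivates Rac, had one of the smallest p-values and fell 1.47-fold (limma adjusted p = 9.43e-05). Npy, the peptide neuropeptide Y, fell 1.44-fold from between 10.19 and 10.74 to between 9.74 and 10.18. Of 11 tested nerve and neuroendocrine transcripts 3 were lower, with Pmp22, a membrane protein of myelin and other tissues, at 1.15-fold.

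Cytoskeletal genes were mixed. Of 50 tested actin-binding genes 10 were higher and 7 lower, with 12 to 18 in all in the fits without 1 lung. Capg, which caps filaments and is known from macrophages, rose 1.51-fold from between 7 and 7.56 to between 7.64 and 8.16. Arpc1b, of the complex that branches actin, rose 1.29-fold, and the motor Myo5a rose 1.29-fold. Gsn, the filament-severing protein gelsolin, was one of the brightest transcripts. Its level was 14.01 at the lowest, 14.05 at the median and 14.14 at the highest in air lungs and 13.62, 13.73 and 13.78 in silica lungs, a 1.27-fold fall (limma adjusted p = 0.000103). Tmod1, which caps the slow end of filaments, fell 1.42-fold. Jup, the junction protein plakoglobin, fell 1.27-fold, and the microtubule protein Map4 fell 1.35-fold. Of 38 tested SNAREs, syntaxins and tetraspanins 5 were lower and 2 higher, with Tspan12 and Tspan7 each 1.32-fold lower. That share (18.4%) was close to the 16.2% of all tested genes that passed in either direction. Of 17 tested calcium-handling and S100 genes 4 were lower and none higher, and 7 were lower in the authors' normalized values. S100a6 fell 1.28-fold, S100a16 fell 1.2-fold and the calcium channel Itpr1 fell 1.2-fold.

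Named members of the lists for nuclear housekeeping and protein turnover changed by less than 1.5-fold. The shares called were 15% for splicing, 14.3% for histones, 11.9% for ubiquitin and 18.5% for autophagy. These were near or below the 16.2% of all tested genes that passed in either direction. Of 38 tested p53 targets and DNA repair genes 3 were lower, beside the 16.2% among all tested genes, and the list median was -0.01. That count was 1 without air replicate 2 or 5 or without silica replicate 3 or 5, and 0 under median scaling. Of 40 tested splicing genes 2 were higher and 4 lower, with Srsf5 at 1.33-fold lower and Snrpa at 1.24-fold higher, and 3 in all without air replicate 3 or 5 or without silica replicate 2 or 4. Of 35 tested histone genes and histone-modifying enzymes 2 were higher and 3 lower. The H2A.Z genes went apart, with H2az1 at 1.19-fold higher, between 12.31 and 12.59 in air and between 12.63 and 12.74 in silica, and H2az2 at 1.29-fold lower. Hdac7, a class II deacetylase, fell 1.32-fold. Of 42 tested ubiquitin genes 5 were lower and none higher, among them the deubiquitinase Usp4 at 1.22-fold and the conjugating enzyme Ube2e3 at 1.18-fold. The count was 3 without air replicate 3, 5 or 6 or without silica replicate 4. Among 27 autophagy genes 2 were higher and 3 lower, with the cargo receptor Sqstm1 at 1.21-fold and Vmp1 at 1.19-fold higher and the mitophagy receptor Bnip3 at 1.23-fold lower. Of 40 tested tRNA synthetases and translation initiation factors 8 were higher and 1 lower. That count of 9 depended on single lungs: it was 3 without silica replicate 4, 4 without air replicate 1 or silica replicate 3, and 5 without air replicate 6 or silica replicate 1 or 2. Farsb, a subunit of phenylalanyl-tRNA synthetase, rose 1.39-fold from between 7.68 and 7.97 to between 8.15 and 8.5. Among dehydrogenases and reductases, Hpgd, which inactivates prostaglandins, fell 1.25-fold.

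Changes in some of the brightest transcripts, and those with the smallest p-values, belonged to other functions. Npc2, which carries cholesterol out of lysosomes, was above 13.9 on every lung array and rose 1.2-fold, with 5 silica lungs between 14.31 and 14.36 and replicate 6 at 14.16. Gpx3, the secreted glutathione peroxidase, fell 1.19-fold with overlapping groups. Serpinb1a, an inhibitor of neutrophil proteases, rose 1.55-fold from between 9.7 and 9.97 to between 10.32 and 10.57 (limma adjusted p = 6.35e-05). Ndrg2 fell 1.4-fold from between 9.69 and 9.88 to between 9.18 and 9.38 at the same adjusted p. Cx3cl1, a membrane-bound chemokine reached through its small p, rose 1.76-fold.

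A few transcripts were undetected on all 6 arrays of 1 group and detected on all 6 of the other. They met the detection filter through the bright group alone, so they are described here without a test. Derl3 was nevertheless counted among the plasma cell markers above. Such rows had only a bound in the dim group, taken per array as the higher of the lowest detected level and the measured level. Scn10a, a sodium channel of sensory neurons, was between 6.66 and 6.98 in silica lungs, at least 1.25-fold above air lungs, where it was not well above background. Acod1, which makes itaconate, was at least 1.13-fold higher, with silica lungs from 6.52 to 6.93. Dmkn, a secreted protein of epidermis, was at least 1.12-fold higher. Hcar2, a receptor of nicotinic acid and ketone bodies, was at least 1.08-fold higher, and Fstl4 at least 1.07-fold. Derl3, A2m, Kif20b, Exo1 and Prss22 were at least 1.03-fold to 1.04-fold higher, and Slc26a3 was at least 1.03-fold lower. The offset added to every signal compresses differences at this end of the scale.

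The silica lungs were not equally far from the air lungs. Over the 20 largest rises and 20 largest falls, silica replicate 2 was the silica lung nearest to the air values for 20 of 40 genes and replicate 6 for 16. Replicate 3 was farthest from them for 19 genes and replicate 5 for 13. The mean log2 level of the 20 rises ran from 8.97 in silica replicate 2 to 9.57 in replicate 3, and in air lungs from 8.02 to 8.38. The mean of the 20 falls ran from 8.55 in silica replicate 3 to 8.91 in replicate 6, and in air lungs from 9.25 to 9.4. Replicates 2 and 6 thus stood nearer to the air lungs than the other 4 silica lungs, on rises and on falls.

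**Figure D4:**
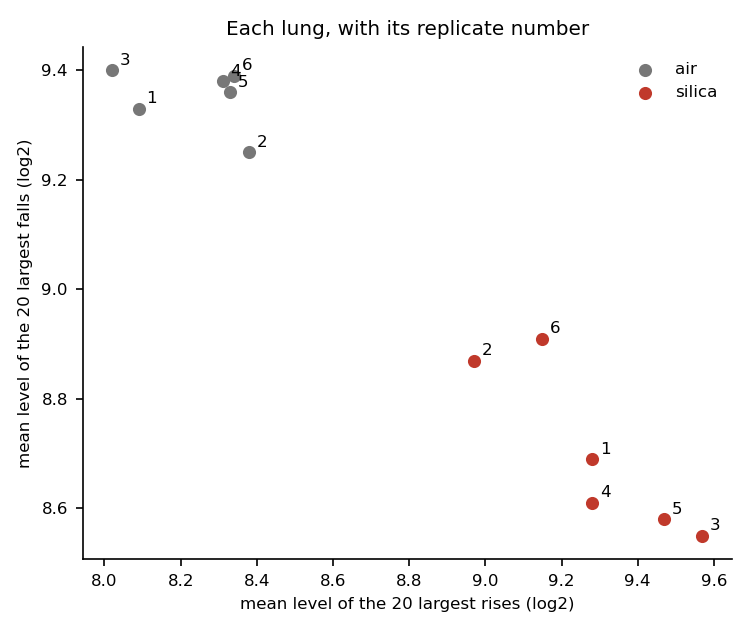
Mean log2 level of the 20 largest rises (horizontal axis) and of the 20 largest falls (vertical axis) in each of the 12 lungs, marked by replicate number. The gap between the groups follows from how the genes were chosen, and the spread within the silica group runs from replicates 2 and 6 to replicates 3 and 5.

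Blood of the same rats was used to ask whether these changes were shared. In blood alone no probe of 7864 passed an adjusted p of 0.05 in limma, with 680 at an unadjusted p under 0.05. The change in each rat's lung minus its blood differed between silica and air for 266 of 7594 probes tested in both tissues (3.50%). Of the genes named here, 83 were tested in both tissues and the difference passed for 27, of which 19 held in all 12 fits that left out 1 rat. These differences come from the 24 arrays normalized together, so that they need not equal the lung change less the blood change of separate fits. Some blood changes were small with small standard errors, as for Snai1 (0.03 ± 0.01) and Slc29a1 (0.01 ± 0.01) on the log2 scale. The offset compresses changes near the floor, so that for a gene dim in blood an equal change could be hidden. Chi3l1 changed by 1.34 in lung and 0.44 in blood on the log2 scale, and its lung minus blood difference was 1.37 ± 0.13 (n = 6 and 6, limma adjusted p = 0.000196). Mt1 changed by 0.94 in lung and 0.13 in blood, with a difference of 0.86 ± 0.09 (limma adjusted p = 0.000238). Ceacam4 changed by 2.04 and 0.24, and Slc7a7 by 1.38 and -0.04. The metabolic genes Gch1, Slc16a3, Suclg1 and Fh, the iron genes Tf and Ftl1, and the falling genes Ddah1, Ddah2, Slc29a1, Thra, Snai1 and Ndrg2 also differed between tissues. Other genes had blood values close to those of lung: Serpinb1a changed by 0.64 in lung and 0.73 in blood, and Gsn by -0.35 and -0.36. Chn1 changed by -0.56 and -0.35, Tesc by -0.68 and -0.43, and Grn by 0.5 and 0.32. The difference between tissues did not pass for these 5 genes, which does not show that it was absent. Zfand2a changed by 0.96 in lung and 0.16 in blood, but its difference (adjusted p = 0.0494) was lost in 11 of the fits without 1 rat. The vessel genes Aplnr, Apln, Bmpr2 and Agtr1a were not among the probes tested in both tissues.

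**Figure D5:**
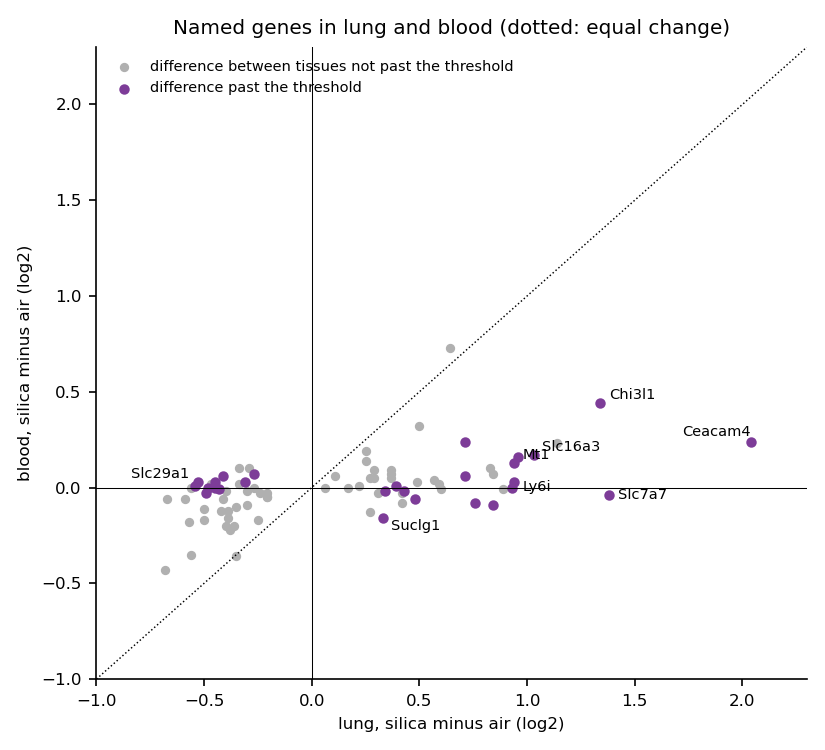
Change after silica in lung (horizontal axis, log2) and in blood (vertical axis, log2) for the 83 named genes tested in both tissues, in purple where the difference between tissues passed an adjusted p of 0.05. Most points lie near 0 on the blood axis, and Ceacam4, Slc7a7 and Chi3l1 lie farthest to the right.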

How the data were processed

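RNA from 12 lungs and 12 blood samples was hybridised to Illumina rat BeadChips. The authors deposited, per the file headers, raw probe signals (intensity, linear scale, not normalized), each with a detection p-value. They also deposited normalized lung values, a score whose transform is not stated. Per the submitters' processing notes, the tools were BeadStudio, lumi and limma. The isolation of lung RNA is not described in the labels. Rows appear to be summarised per gene, and 561 of 21792 rows have detection p-values that appear to combine several probes.

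In R 4.3.3 with limma 3.58.1, the lung arrays were background corrected, offset by 16, quantile normalized and put on the log2 scale by neqc, with negative controls inferred from detection p-values. Probes detected at p under 0.05 on 6 or more of 12 arrays were fitted with lmFit and eBayes, two-sided, without covariates, at a Benjamini-Hochberg adjusted p of 0.05 over all 11285 probes. A fold is 2 to the power of the difference of group means, and ± is the standard error. Lung minus blood was fitted per rat after neqc of all 24 arrays together. Each gene counts by its brightest tested probe. On simulated lung data of 11285 probes, 82% of 1.25-fold and 98% of 1.5-fold changes were recovered. The simulation drew noise independently for each probe and added the change after normalization. It leaves out variation shared across an array and the compression near the floor, so that recovery on real arrays can be lower. The number of arrays limits the precision.

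The members and lists were chosen with earlier results of these data known. The rule named the 20 largest rises and falls outside usual inflammation and marker lists, up to 4 called genes per function list, genes detected in 1 group alone, the 5 most abundant and the 5 smallest p. Of 183 genes so chosen, 137 are named, mostly those that held in every fit without 1 lung, and 14 more were chosen after their values were seen. Symbols were updated through a RefSeq table of GRCr8, used for names and promoters, which matched 16316 rows. Alternatives covered background, normalization, filters, prior, array weights, a cardiac muscle score, the replicate block and each lung left out. Some genes that the rule selects are not reported here.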

Additional observations from a re-analysis of the deposited data

Results flagged for a closer look

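Across the 302 groups of 6 lungs examined (151 genes in 2 groups), 20 held a lung set apart from the other 5 by Dixon's criterion, and chance gives about 1 in 20. In silica replicate 6, Notch4 (8.31, against 7.55 to 7.77 in the others) and Gpx3 (14.05, against 13.58 to 13.75) were high, and Cks2 (7.64, against 8.13 to 8.2), Npc2 (14.16) and Serpinb1a (10.32) were low. In silica replicate 2, Aplnr was high (10.43) and Cx3cl1 low (10.77). In replicate 3, Suclg1 (11, against 10.74 to 10.78), Dmkn (6.79) and A2m (6.57) were high. In replicate 4, Acod1 (6.93) was high and Jup (10.11) low. In replicate 5, Grn (11.2) was high and Tmod1 (7.35) low. Among air lungs, replicate 6 was high for Chn1 (8.81) and low for Plvap (14.22). Air replicate 5 was high for Rgs12 (9.42, against 9.05 to 9.14) and Adora2b (7.17). Air replicate 4 was low for Zeb1 (8.35), and air replicate 2 was low for Derl3 (6.43).

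The measured effect of silica differed between lung and blood of the same rats, by the limma fit of lung minus blood, for 27 named genes. Where a gene was dim in blood, the offset could hide a change there. On the log2 scale the difference was positive for Ceacam4 (1.69), Slc7a7 (1.56), Chi3l1 (1.37), Ly6i (1.05), Slc16a3 (0.92), Tf (0.87), Mt1 (0.86), Otulinl (0.75), Sema4a (0.73), Gch1 (0.67), Suclg1 (0.54), Ftl1 (0.49) and Fh (0.42). It was negative for Ddah1 (-0.6), Ddah2 (-0.55), Slc29a1 (-0.55), Snai1 (-0.52), Thra (-0.44) and Ndrg2 (-0.38). These 19 held in every fit without 1 rat. The others lost the call in 5 to 11 of the 12 such fits: Batf (0.66), Farsb (0.56), Slc11a2 (0.48), Zfand2a (0.44), Npy (-0.62), Klf9 (-0.56), Notch4 (-0.38) and Map4 (-0.27).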

How the results depend on the processing

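The count of 1820 called lung probes (857 higher, 963 lower) stayed within 1.5 times under 9 of the 11 alternatives to the settings. Under median scaling it was 1177 (550 higher, 627 lower). With the replicate block it was 1130 (554 higher, 576 lower); same-numbered lungs correlated at -0.295 to 0.185 in their deviations, so the numbers do not pair the rats. Leaving out 1 lung gave 1342 to 1970 calls, with 667 to 905 higher and 675 to 1065 lower, the lowest without silica replicate 3. The 266 lung minus blood calls became 510 with the tissues normalized apart and 245 with the replicate block, and without 1 rat they ran from 191 to 410, the highest without silica replicate 6. The causes were not tested. None of the 151 genes named with values changed sign under the settings run. Of the 140 that were tested, 16 lost the call with the replicate block and 1 (Pde7a) with no filter. In at least 1 fit without 1 lung, 2 lost it (Pde7a and Thbd). That last count was largely fixed in advance, since genes were named mostly where they held in those fits. Of 37 lists, the count changed by over 1.5 times for 18 in at least 1 fit without 1 lung, 19 with the replicate block, 13 under median scaling, 8 with no filter, 5 with the cardiac score as covariate, and 1 to 3 under each of the other 7 settings. A block for BeadChip or section was not run, since the headers used here name none. Signals near the floor of about 6.5 limit what can be seen of dim genes.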

Other observations

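Some further list members changed by small amounts with no overlap between the groups. Sgpl1, the lyase that ends sphingosine 1-phosphate, was between 6.68 and 6.82 in air lungs and between 6.9 and 7.07 in silica lungs, a 1.17-fold rise (limma adjusted p = 0.00115). Hnrnpk, an RNA-binding protein, lay between 9.1 and 9.2 in air lungs and between 8.84 and 9.01 in silica lungs, a 1.15-fold fall (limma adjusted p = 0.000968). Maob, a mitochondrial amine oxidase, lay between 9.97 and 10.33 in air lungs and between 9.73 and 9.89 in silica lungs, a 1.23-fold fall (limma adjusted p = 0.00378).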
